A study of Mus musculus with 54 samples.

Results

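The 8 genes described here handle or answer glucocorticoids, the adrenal steroids that act on fat cell precursors, and were followed through 288 h of culture of mouse 3T3-L1 preadipocytes. They are Hsd11b1, Nr3c1, Fkbp5, Tsc22d3, Zbtb16, Sgk1, Mt1 and Mt2. Members were taken by gene symbol, as every array probe whose platform symbol names one of them, which gave 9 probes among the 16637 genes named on the array (1 probe per gene and 2 for Sgk1). Of the 8 genes, 5 could be measured and tested among 12792 genes. Mt1 and Mt2 were saturated on all 54 arrays, and Zbtb16 lay below the filter on dim genes.

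3T3-L1 is an established mouse line of fibroblast-like preadipocytes that can be driven to become fat cells. The cells were given 2 µM prieurianin (a plant limonoid), given 0.5% DMSO (a solvent), or left untreated as a control undergoing normal differentiation. RNA was taken at 18 times in each of the 3 arms, namely 0, 0.25 and 0.5 h, then 1, 2 and 3 h, then 5, 9, 12, 15, 24, 36 and 48 h, and last 96, 144, 192, 240 and 288 h. Each arm and time had 1 single-colour array, 54 in all. The labels do not say whether the times came from separate cultures, nor what the differentiation medium held or when it was given or changed, so no steroid dose can be set beside these values. All arms share the line. The comparisons of prieurianin with DMSO and with untreated cells share the prieurianin arrays, and DMSO minus untreated shares its arrays with both.

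In the cell, 11-beta-hydroxysteroid dehydrogenase type 1, the product of Hsd11b1, turns inactive 11-keto steroids into active glucocorticoid with NADPH made by H6pd. The steroid binds the glucocorticoid receptor, encoded by Nr3c1, which leaves its chaperones for the nucleus and binds DNA at pairs of a short half-site, raising some genes and lowering others, inflammatory genes among them. Fkbp5, Tsc22d3, Zbtb16, Sgk1 and the metallothionein genes are widely used as its induced targets, and glucocorticoid is a usual part of the mixture that starts differentiation of 3T3-L1 cells. Mature fat cells are also a known site of Hsd11b1 expression.

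The promoters of 3 receptor targets are shown, those of the 3 targets that could be measured. For Sgk1, with 6 windows, and Tsc22d3, with 3, the window printed was chosen as the one with most half-sites, while Fkbp5 has a single window. The windows are the 250 bases before a RefSeq start on build GRCm38.p6, 5′ to 3′ on the gene's strand. They are Sgk1 start 5 at chr10:21993640-21993889 (plus strand), Tsc22d3 start 3 at chrX:140600523-140600772 (minus strand) and Fkbp5 at chr17:28486150-28486399 (minus strand). Capitals mark the half-site AGAACA on either strand (TGTTCT when read on the other), and in Sgk1 also the 3 bases between a facing pair.
Sgk1 start 5: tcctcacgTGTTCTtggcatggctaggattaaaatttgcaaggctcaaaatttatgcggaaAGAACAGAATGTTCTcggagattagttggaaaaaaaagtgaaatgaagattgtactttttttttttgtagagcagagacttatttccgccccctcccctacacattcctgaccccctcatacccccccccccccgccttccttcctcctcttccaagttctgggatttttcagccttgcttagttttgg
Tsc22d3 start 3: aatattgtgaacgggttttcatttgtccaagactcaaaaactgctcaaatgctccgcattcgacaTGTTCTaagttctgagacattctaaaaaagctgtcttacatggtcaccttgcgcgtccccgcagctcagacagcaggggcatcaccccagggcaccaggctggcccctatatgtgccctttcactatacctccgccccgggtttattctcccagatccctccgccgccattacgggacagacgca
Fkbp5: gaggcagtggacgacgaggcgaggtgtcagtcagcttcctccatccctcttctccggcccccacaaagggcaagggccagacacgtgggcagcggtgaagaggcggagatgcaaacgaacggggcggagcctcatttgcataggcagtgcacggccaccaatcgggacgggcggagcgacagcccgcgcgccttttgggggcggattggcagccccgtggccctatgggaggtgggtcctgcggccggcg

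The Sgk1 window held 3 half-sites, of which 2 face each other as a full palindromic element, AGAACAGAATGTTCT, at −189 to −175 from start 5. Counted from Sgk1 start 6, which lies 776 bases downstream, the element is at −965 to −951. Of the 32851 windows of this length in the table, 5284 (16.1%) hold a half-site and 3 hold the full element, which contains 2 half-sites and so counts among them. Also searched on both strands were the cyclic AMP half-site TGACG (17.8% of all windows), the C/EBP site TTGCNNAA (9.56%) and the CArG box bound by serum response factor (1.47%). The cyclic AMP half-site was found at Sgk1 start 2, Tsc22d3 start 2 and Mt1. The C/EBP site was found at Sgk1 start 2 and Mt2, and the CArG box in none of the members' windows that were searched. The other 5 Sgk1 windows held 1, 0, 0, 1 and 0 half-sites. The Tsc22d3 window printed held 1 half-site, at −185 to −180, the other 2 held none, and the Fkbp5 window held none of the motifs searched. Windows of 6 of the 8 members were searched, 13 in all, and none of Nr3c1 or Zbtb16. Those of Mt1, Mt2 and Hsd11b1 held 1, 3 and 1 copies of the metal response core (TGCACNC or TGCGCNC, either strand), which 21.4% of all windows hold. A match is a run of letters and not a measured binding site, and a window without one says nothing of sites elsewhere.

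Values below are log2 levels, log2(quantile normalised intensity + 16), so differences of dim genes are understated. The deposited values had array medians of 88 to 313 and 93 to 176 saturated probes per array, and the number of arrays limits precision. Arm differences were tested at matched times in 3 windows, 0.25 to 3 h, 5 to 48 h and 96 to 288 h, and the different times of a window took the place of replicates. Neighbouring times are not independent, so a p-value measures how an arm difference varied between times. Changes over the course were tested without a time block. In the mean of the 3 arms at 1 to 3 h, arrays sharing a time counted as separate replicates, so those p-values rest on 3 times per window. A gene was called where limma's adjusted p was under 0.05 over all tested genes. Lists of related genes read below were chosen with earlier results of these data known. Their shares beside all genes are therefore a description. At 192 h the prieurianin array was most like an array of another arm, untreated at 144 h (r = 0.971 over 12792 genes). The DMSO and untreated arrays at 192 h were most like late arrays of their own arms, at 288 h (r = 0.9855) and 240 h (r = 0.9853). The late arm differences of members that were called with or without 192 h are given both ways, and those of other named genes where leaving it out changed the call. In bulk RNA, a change in the share of fat cells and a change of RNA per cell cannot be told apart.

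The summed level of 6 adipocyte markers was 2010 to 3933 with prieurianin, 2334 to 3862 with DMSO and 1204 to 4434 in untreated cells at 0 to 0.5 h, on the scale of normalised intensity. At 96 to 288 h the sums were 7486 to 202169, 91146 to 181063 and 88121 to 173387 in the same 3 arms. All 6 markers were lower with prieurianin than with DMSO in that late window, with a median log2 difference of −2.38, where the median of all genes was 0.02. The mean of these markers in the prieurianin arm was 11.30, 11.69, 13.90, 9.62 and 9.37 at 96, 144, 192, 240 and 288 h, against 12.70, 13.61, 13.29, 13.63 and 13.62 with DMSO. The prieurianin array at 192 h was thus the highest in its arm and above its DMSO partner. Of 5 macrophage markers, the defining genes Adgre1 and Ptprc were below the filter, as were the endothelial genes Cdh5 and Kdr, the muscle genes Ckm and Myod1 and the epithelial genes Epcam and Cdh1. The endothelial gene Pecam1 and the muscle gene Myog passed it. Late, Pecam1 had median intensities of 438, 449 and 523 in the prieurianin, DMSO and untreated arms, and Myog of 51, 54 and 56. Neither was called late between prieurianin and DMSO. The 5 macrophage markers summed to 508 to 3584, 576 to 1251 and 649 to 1688 late in the same arms. The third epithelial marker, the keratin gene Krt18, was lower late with prieurianin than with DMSO (−1.53 ± 0.31, adjusted p = 0.00099), and 0 of the 3 macrophage markers tested was called there. The 6 fibroblast markers summed to 173763 to 175666, 172175 to 178779 and 172846 to 187034 at 0 to 0.5 h in the 3 arms. Late they summed to 95836 to 141784, 85968 to 150875 and 87112 to 153781. Col1a2 and Dlk1 weigh most in these sums, with early medians of 65491 and 63073 with prieurianin, near the top of the scale. Of the 6, 2 were higher and 2 lower late with prieurianin than with DMSO (66.7%, beside 16.7% of all genes). Against untreated cells 1 was called, higher (16.7%, beside 22%). The part of fat cell content in the results below was not tested.

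**Figure D1:**
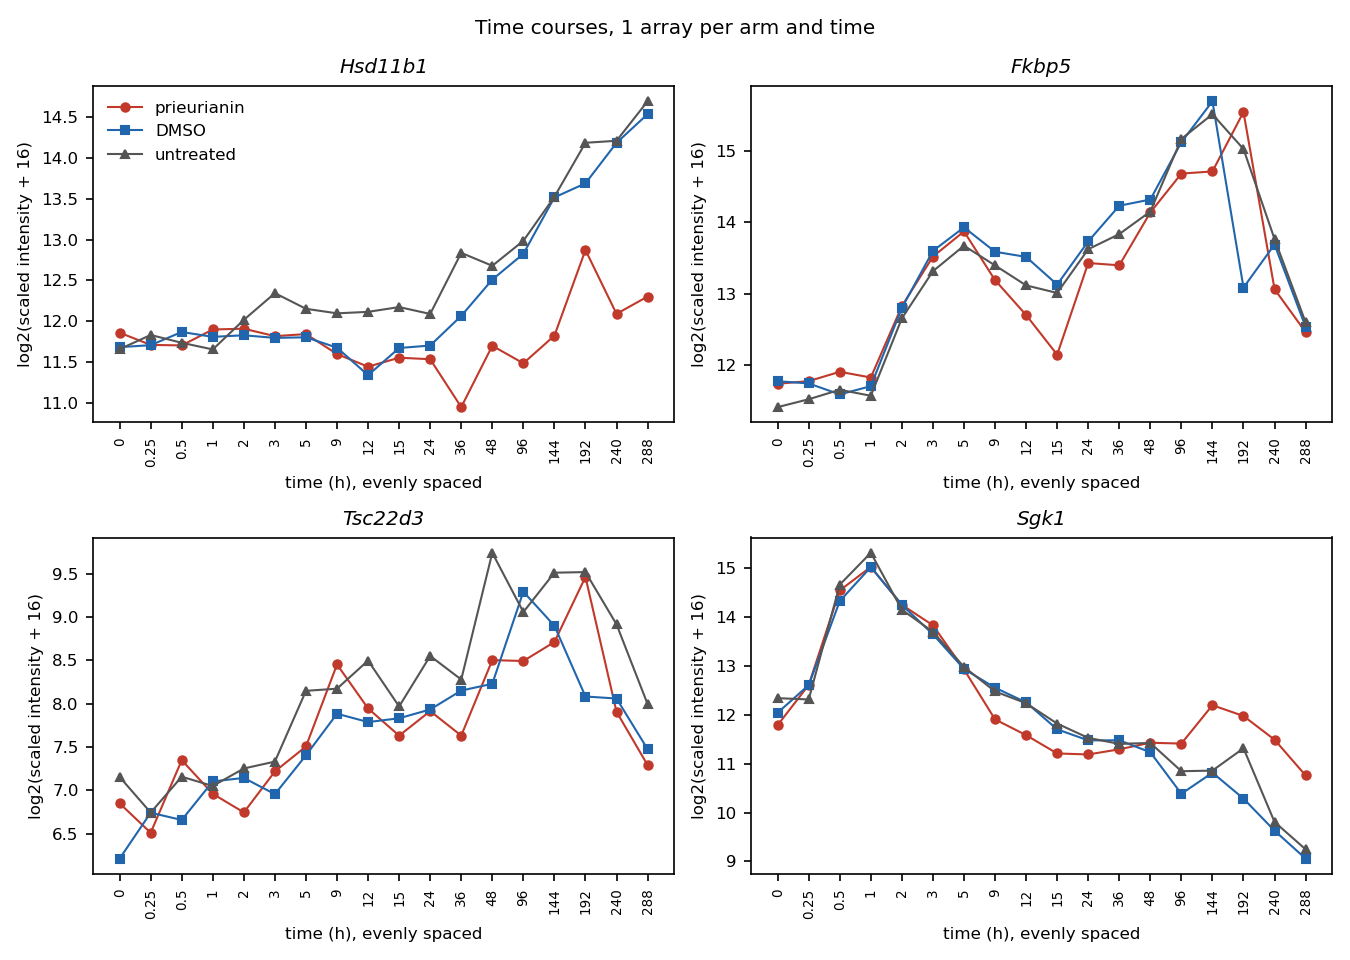
Log2 level of Hsd11b1, Fkbp5, Tsc22d3 and the brighter Sgk1 probe against time (h, evenly spaced positions) in the prieurianin, DMSO and untreated arms, 1 point per array with lines joining the points of an arm. Hsd11b1 separates late, with prieurianin at 11.49 to 12.87 below DMSO and untreated cells. Fkbp5 ends at 12.46 to 12.60 in all 3 arms, and Sgk1 peaks at 1 h at 15.02 to 15.31.

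Hsd11b1, the enzyme that regenerates active steroid, climbed through the late course in DMSO and untreated cells and stayed low with prieurianin. At 96, 144, 192, 240 and 288 h its log2 level was 11.49, 11.82, 12.87, 12.09 and 12.30 with prieurianin. It was 12.83, 13.52, 13.69, 14.19 and 14.54 with DMSO, and 12.99, 13.52, 14.19, 14.21 and 14.69 in untreated cells. The prieurianin values lay below those of DMSO at every matched time, and only the prieurianin array at 192 h came within the DMSO range. The level was lower with prieurianin than with DMSO by 3.11-fold in the late window (log2 difference −1.64 ± 0.17 SE, adjusted p = 4.4e-08, lower at 5 of 5 times). Against untreated cells it was 3.495-fold lower (−1.81 ± 0.17, adjusted p = 5.5e-09). In the late windows 16.7% of all genes were called between prieurianin and DMSO and 22% between prieurianin and untreated cells. Without 192 h the differences were −1.84 (adjusted p = 2.8e-09) and −1.93 (adjusted p = 1e-09).

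Earlier, at 0 h, Hsd11b1 stood at 11.86, 11.68 and 11.66 in the prieurianin, DMSO and untreated arms, so the arms began close together. At 5 to 48 h it was 10.95 at the lowest, 11.55 at the median and 11.84 at the highest with prieurianin, 11.34, 11.70 and 12.51 with DMSO, and 12.09, 12.15 and 12.84 in untreated cells. The prieurianin range lay wholly below the untreated range, and it overlapped that of DMSO. Prieurianin was below untreated cells at 7 of 7 times (−0.79 ± 0.14, adjusted p = 8.6e-05), in a comparison in which 28.5% of genes were called. DMSO was also below untreated cells at 7 of 7 times (−0.48 ± 0.14, adjusted p = 0.015), where 20.3% were called. That DMSO call was lost without 12 h and without the time block, with adjusted p of up to 0.15 over its alternatives. Between prieurianin and DMSO the mid-course difference was −0.31 ± 0.14 (adjusted p = 0.17), and it differed from the late one by −1.33 ± 0.22 (adjusted p = 0.0016), a contrast called for 6.74% of genes. The same contrast against untreated cells was −1.02 ± 0.22 (adjusted p = 0.0069), called for 5.78% of genes. Both contrasts were lost without time as a block, with adjusted p of 0.069 and 0.19. The contrast against untreated cells was also lost with median centring (adjusted p = 0.15) and with only the arms compared (adjusted p = 0.059).

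Within each arm, Hsd11b1 rose at 96 to 288 h over its own 5 to 48 h level with DMSO (1.93 ± 0.23, adjusted p = 9.4e-09) and in untreated cells (1.61 ± 0.23, adjusted p = 3.4e-07). In the prieurianin arm the change was 0.60 ± 0.23 with an adjusted p of 0.052. It passed the test in 8 of 30 alternatives, at up to 0.755 without 96 h (adjusted p = 0.0051), and was lowest at 0.41 without 192 h (adjusted p = 0.24). Those contrasts were called for 23.7%, 36.9% and 33.6% of genes in the prieurianin, DMSO and untreated arms. Between 96 to 144 h and 240 to 288 h it was higher at the later times by 1.19 ± 0.28 with DMSO (adjusted p = 0.005) and by 1.198 ± 0.28 in untreated cells (adjusted p = 0.0044), against 0.54 ± 0.28 with prieurianin (adjusted p = 0.27). This split of the late window was chosen after its values were seen, and both of its Hsd11b1 calls were lost without 96 h and without 288 h, that of DMSO also with median centring (adjusted p = 0.11). It was called for 6.02%, 7.11% and 6.99% of genes in the prieurianin, DMSO and untreated arms.

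Among the enzymes around Hsd11b1, Hsd11b2, which runs the opposite reaction and inactivates glucocorticoid, was higher with prieurianin than with DMSO late. Its mean log2 level was 8.68 with prieurianin and 7.71 with DMSO (0.97 ± 0.14, adjusted p = 2.2e-05, higher at 5 of 5 times). H6pd, which supplies NADPH to Hsd11b1, differed between these arms by −0.06 ± 0.14 in the late window (adjusted p = 0.82). It rose late in every arm over 5 to 48 h, by 1.30 ± 0.19, 1.32 ± 0.19 and 1.36 ± 0.19 in the prieurianin, DMSO and untreated arms (adjusted p of 3.9e-06 or less). So of these 3 enzymes, Hsd11b1 was lower and Hsd11b2 higher with prieurianin, while the difference of H6pd did not pass the test.

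Nr3c1, the receptor gene, was dim, with deposited intensities of 94 to 616 and scattered values. Its log2 level at 5 to 48 h was 6.82 at the lowest, 7.65 at the median and 8.07 at the highest with prieurianin, 6.90, 7.45 and 7.88 with DMSO, and 7.28, 8.43 and 8.87 in untreated cells. The ranges overlapped. Both treated arms were lower than untreated cells, by −0.74 ± 0.19 for prieurianin (adjusted p = 0.0031) and −0.80 ± 0.19 for DMSO (adjusted p = 0.0022), each lower at 6 of 7 times, while prieurianin minus DMSO was 0.07 ± 0.19 (adjusted p = 0.87). At 0 h the DMSO array already read 6.98 beside 8.41 with prieurianin and 8.21 in untreated cells, a gap of −1.23 between DMSO and untreated arrays. At 96 to 288 h none of its 3 arm differences was called. Within arms it rose late over 5 to 48 h with DMSO (1.04 ± 0.29, adjusted p = 0.0044), while the rise with prieurianin (0.79 ± 0.29, adjusted p = 0.043) was lost in 11 alternatives and the difference in untreated cells was 0.19 ± 0.29 (adjusted p = 0.66). The highest value of each arm in the course was at 288 h, at 9.55, 8.90 and 9.21 in the prieurianin, DMSO and untreated arms.

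Of the 15 genes listed for receptor machinery and steroid handling, which include the chaperones and coregulators of the receptor, 14 were tested. Late, 1 (Hsd11b2) was higher and 1 lower with prieurianin than with DMSO, a share of 14.3% that lies near the 16.7% of all genes, with a median of −0.05 beside 0.02 for all genes. The lower gene was Nrip1, a corepressor of nuclear receptors, at a mean of 8.21 with prieurianin and 9.75 with DMSO (−1.54 ± 0.24, adjusted p = 5e-05, lower at 5 of 5 times). None of the 14 was called between these arms at 5 to 48 h, where 11.1% of all genes were. Against untreated cells, prieurianin had 3 higher and 4 lower at 5 to 48 h (50%, beside 28.5% of all genes), with Hsp90aa1, a receptor chaperone, 0.62 ± 0.12 higher (adjusted p = 0.00012). DMSO likewise had 3 higher and 3 lower than untreated cells in that window (42.9%, beside 20.3% of all genes). Hsp90aa1 was among its higher genes, at 0.43.

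**Figure D2:**
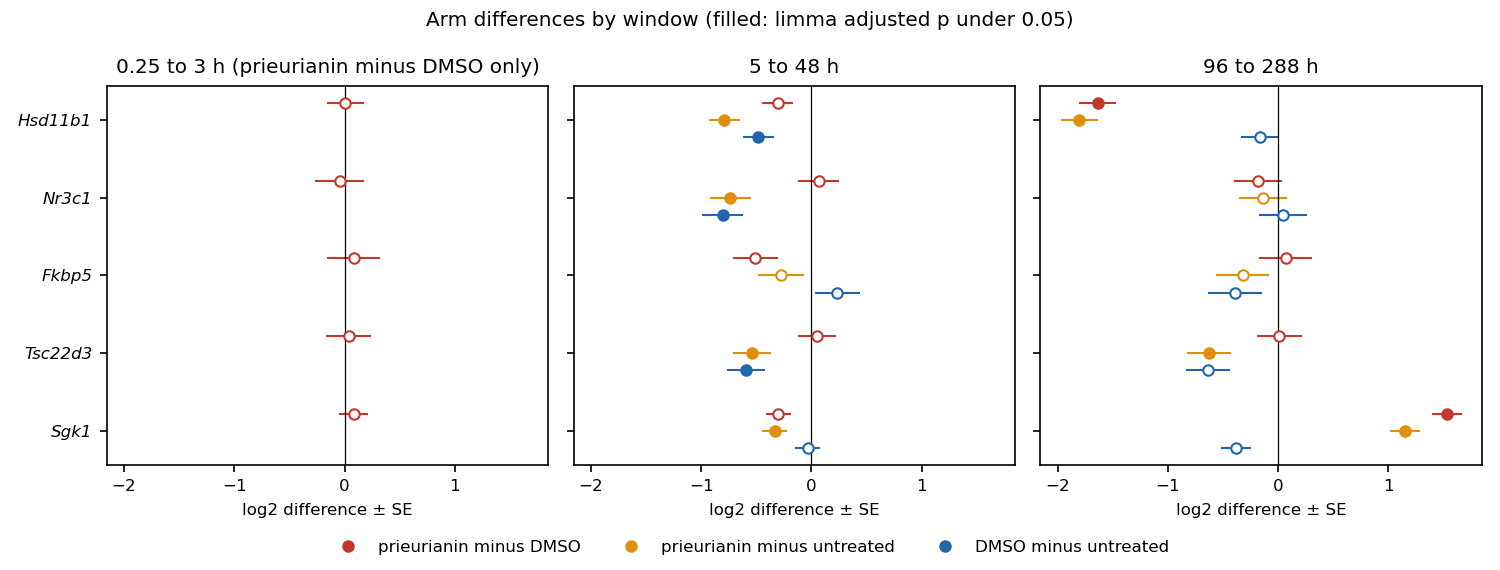
Log2 differences between arms (x axis, ± SE from the fit) for the 5 measured genes (y axis) at 0.25 to 3 h, 5 to 48 h and 96 to 288 h, with filled points for an adjusted p under 0.05. Late, Hsd11b1 lies at −1.64 and −1.81 and Sgk1 at 1.53 and 1.15 for prieurianin minus DMSO and minus untreated, while the DMSO minus untreated points of that window are open.

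Fkbp5, a receptor co-chaperone that dampens steroid binding, climbed in 2 phases and then returned toward its start. Its log2 level at 1 h was 11.82, 11.70 and 11.57 in the prieurianin, DMSO and untreated arms, and at 5 h it was 13.87, 13.93 and 13.67. It dipped at 15 h, to 12.14, 13.13 and 13.01, still above the 1 h level of each arm, and reached 14.71, 15.69 and 15.51 at 144 h. At 288 h all arms lay close together, at 12.46, 12.53 and 12.60. The mean rise at 1 to 3 h over 0 to 0.5 h was 0.97 ± 0.38 (adjusted p = 0.083). Without 1 h, when no arm had yet moved, it was 1.44 and passed the test (adjusted p = 0.0081). Over 0 to 0.5 h, the 5 to 48 h level was higher by 1.46 ± 0.55 with prieurianin (adjusted p = 0.074), 2.08 ± 0.55 with DMSO (adjusted p = 0.012) and 2.01 ± 0.55 in untreated cells (adjusted p = 0.013). These contrasts were called for 12.2%, 10.6% and 12.3% of genes. With only 3 baseline arrays per arm, the DMSO and untreated calls were lost without any of 0, 0.25 or 0.5 h, although the differences then stayed at 1.96 to 2.11.

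Fkbp5 fell late in all 3 arms, read over a split of the late window that was chosen after its values were seen. The adjusted p-values of the split therefore describe the fall and cannot test it. Its level at 240 to 288 h was below that at 96 to 144 h by 3.82-fold with prieurianin (−1.94 ± 0.54, adjusted p = 0.024), 4.91-fold with DMSO (−2.30 ± 0.54, adjusted p = 0.0053) and 4.46-fold in untreated cells (−2.16 ± 0.54, adjusted p = 0.0089). All 3 calls were lost without 144 h and without 288 h, at differences of −1.92 to −2.01 and of −1.58 to −1.72. The prieurianin call was also lost without 96 h, and the prieurianin and untreated calls when arrays were centred on their medians (−1.98 and −2.05). Over the same split Hsd11b1, described above, was higher at the later times with DMSO and in untreated cells.

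Between the arms, the result for Fkbp5 rested on 1 time. At 96, 144, 192, 240 and 288 h it read 14.68, 14.71, 15.54, 13.06 and 12.46 with prieurianin, 15.12, 15.69, 13.08, 13.69 and 12.53 with DMSO, and 15.17, 15.51, 15.02, 13.76 and 12.60 in untreated cells. Prieurianin was lower than DMSO at 4 of the 5 times, and 2.46 higher at 192 h. With all times the late difference was 0.07 ± 0.24 (adjusted p = 0.9). Without 192 h it was −0.53 (adjusted p = 0.0022), and against untreated cells it was −0.32 ± 0.24 with all times (adjusted p = 0.39) and −0.53 without 192 h (adjusted p = 0.0019). In the mid course, 5 to 48 h, Fkbp5 was below DMSO at 7 of 7 times, the gap being widest at 15 h (−0.98), yet the difference of −0.51 ± 0.21 did not pass the test (adjusted p = 0.11). Without 192 h, whose spread enters the error of every window, that adjusted p was 0.00047.

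**Figure D3:**
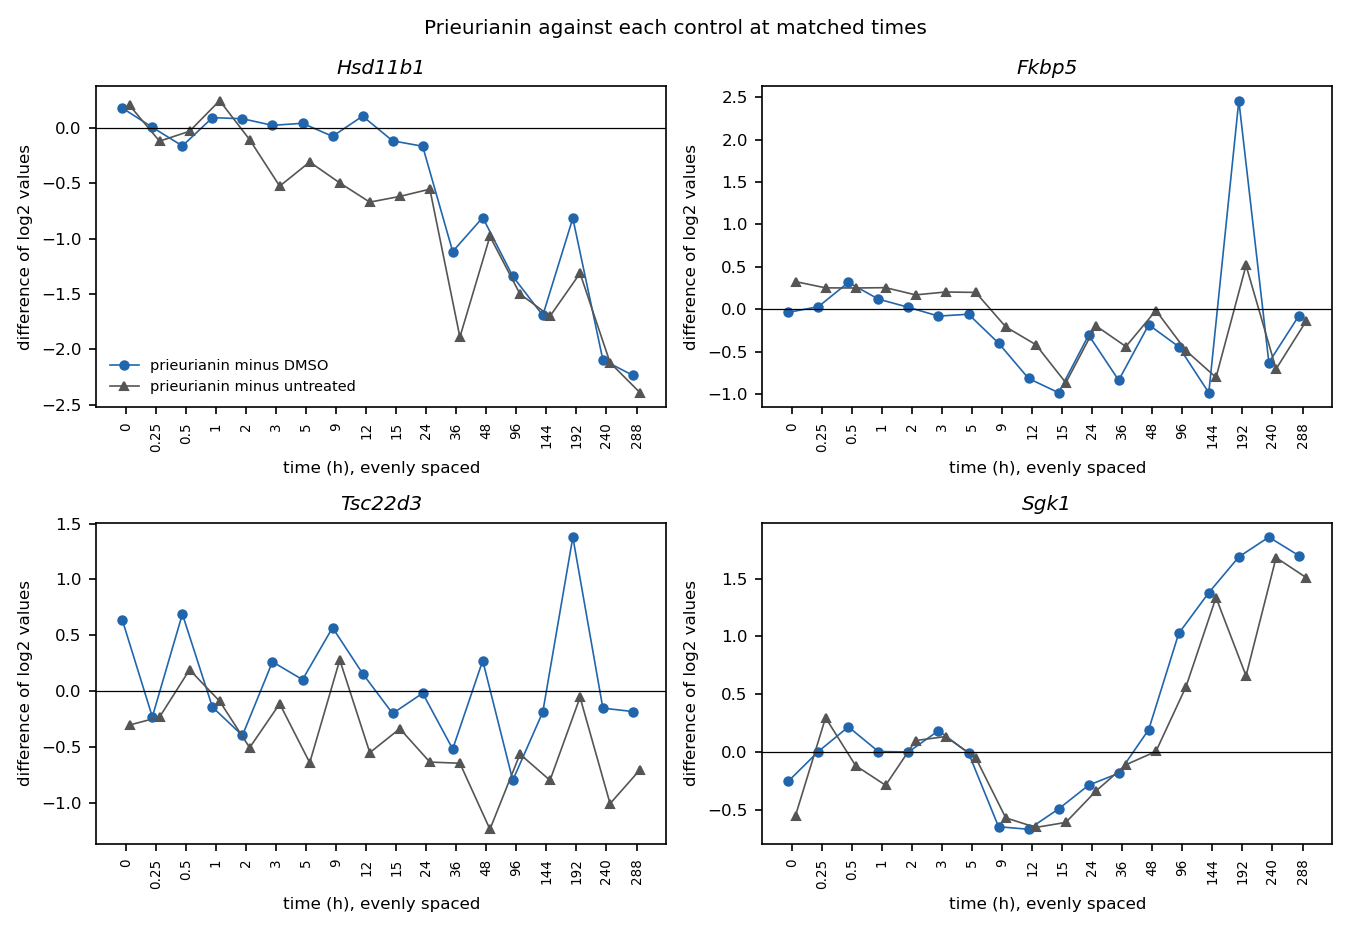
Difference of log2 levels at each time (h, evenly spaced positions) for prieurianin minus DMSO and prieurianin minus untreated, 1 array per arm. Hsd11b1 lies at −0.81 or lower from 36 h in both, Sgk1 is below 0 at 9 to 24 h and above 0.5 from 96 h, and Fkbp5 stands 2.46 above DMSO at 192 h.

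Tsc22d3, which encodes the anti-inflammatory protein GILZ, rose slowly and was dim throughout, at deposited intensities of 62 to 821. At 0, 0.25 and 0.5 h its log2 level was 6.85, 6.51 and 7.35 with prieurianin, 6.21, 6.74 and 6.66 with DMSO, and 7.16, 6.74 and 7.16 in untreated cells. By 5 to 48 h the lowest, median and highest were 7.51, 7.92 and 8.50 with prieurianin, 7.41, 7.89 and 8.23 with DMSO, and 7.97, 8.28 and 9.74 in untreated cells. No array of the mid course fell within the early range of its own arm. The rise was 1.04 ± 0.34 with prieurianin (adjusted p = 0.035), 1.35 ± 0.34 with DMSO (adjusted p = 0.007) and 1.46 ± 0.34 in untreated cells (adjusted p = 0.0029). The prieurianin call was lost in 9 alternatives, with adjusted p of up to 0.2, and the DMSO call without 0 h.

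Both treated arms held less Tsc22d3 than untreated cells in the mid course, by −0.54 ± 0.17 for prieurianin (adjusted p = 0.017, lower at 6 of 7 times) and −0.59 ± 0.17 for DMSO (adjusted p = 0.013, lower at 7 of 7 times). Prieurianin minus DMSO was 0.05 ± 0.17 (adjusted p = 0.89). Late, prieurianin was below untreated cells by 0.63 (log2 difference −0.63 ± 0.20, adjusted p = 0.024, lower at 5 of 5 times), and by 0.77 without 192 h (−0.77, adjusted p = 0.0019). That call was lost without 144, 240 or 288 h, with time as a random block and with no block, with adjusted p of up to 0.22. The difference from DMSO was 0.01 ± 0.20 (adjusted p = 0.98), and DMSO minus untreated was −0.64 ± 0.20 (adjusted p = 0.076) in a comparison with 3.65% of genes called. At 0 h the DMSO array was already 0.94 below the untreated one (−0.94), and the mid-course calls of both arms were lost without 48 h and with no block, that of DMSO also on values as deposited. Between 96 to 144 h and 240 to 288 h, the split chosen after its values were seen, the level fell by 1.33 with DMSO (−1.33 ± 0.37, adjusted p = 0.021). That call was lost without 96, 144 or 288 h. The differences were −1.002 ± 0.37 with prieurianin (adjusted p = 0.1) and −0.83 ± 0.37 in untreated cells (adjusted p = 0.2).

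Sgk1, a kinase that acts on ion transport and cell survival, gave the fastest answer. On its brighter probe the log2 level at 0, 0.25, 0.5, 1, 2 and 3 h was 11.79, 12.61, 14.54, 15.02, 14.25 and 13.83 with prieurianin. It was 12.04, 12.61, 14.33, 15.02, 14.25 and 13.65 with DMSO, and 12.34, 12.31, 14.66, 15.31, 14.15 and 13.70 in untreated cells. All arms peaked at 1 h, and the arms differed little beside the size of the pulse. The mean of the 3 arms at 1 to 3 h exceeded that at 0 to 0.5 h by 1.33 ± 0.36 (2.51-fold, adjusted p = 0.008), where 13.5% of genes were called. That fit had no time block, so the 3 arms at each time counted as separate replicates. Since 0.5 h was already high, both windows were also moved. The level at 0.5 to 3 h exceeded that at 0 to 0.25 h by 2.11 ± 0.30 (adjusted p = 8.1e-06), a baseline chosen after its values were seen. The level at 2 to 3 h exceeded that at 0 to 1 h by 0.42, which was not called (adjusted p = 0.59). The call on the first baseline was lost without 0 h, without 0.25 h and without 1 h, at differences of 0.84, 1.07 and 0.94, with adjusted p of 0.2, 0.091 and 0.09, and the range over all alternatives was 8.1e-06 to 0.59.

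At 0.25 to 3 h none of the 5 measured genes differed between prieurianin and DMSO by the test. Differences ran from −0.04 ± 0.22 for Nr3c1 to 0.08 ± 0.24 for Fkbp5 and 0.08 ± 0.13 for Sgk1, each with an adjusted p of 1. Of all 12792 genes limma called 0 (0%) in this window, and 300 had an unadjusted p under 0.05.

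From 5 h, Sgk1 declined in every arm, and the arms crossed. At 5, 9, 12, 15, 24, 36 and 48 h it read 12.93, 11.91, 11.58, 11.21, 11.19, 11.29 and 11.43 with prieurianin, against 12.94, 12.55, 12.25, 11.70, 11.48, 11.48 and 11.23 with DMSO and 12.98, 12.48, 12.24, 11.82, 11.53, 11.40 and 11.42 in untreated cells. Prieurianin was the lowest arm from 9 to 36 h. The mid-course difference was −0.30 ± 0.11 from DMSO (adjusted p = 0.086) and −0.33 ± 0.11 from untreated cells (adjusted p = 0.027). That second call was lost in 9 alternatives, median centring, leaving out the other arm and leaving out 9, 12, 15 or 24 h among them, with adjusted p of up to 0.62.

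At 96, 144, 192, 240 and 288 h Sgk1 stood at 11.41, 12.20, 11.97, 11.49 and 10.76 with prieurianin, 10.38, 10.82, 10.29, 9.63 and 9.06 with DMSO, and 10.85, 10.86, 11.32, 9.81 and 9.25 in untreated cells. Prieurianin was the highest arm at each of these times, and its range overlapped that of DMSO only through the 288 h array. It was 2.89-fold above DMSO (1.53 ± 0.13, adjusted p = 1.8e-09, higher at 5 of 5 times) and 2.22-fold above untreated cells (1.15 ± 0.13, adjusted p = 3.7e-07). Without 192 h the differences were 1.49 (adjusted p = 1.9e-09) and 1.27 (adjusted p = 3.2e-08). The late difference exceeded the mid-course one by 1.83 ± 0.18 against DMSO (adjusted p = 1.3e-07) and by 1.48 ± 0.18 against untreated cells (adjusted p = 1.8e-05). Within arms, the late level was below the mid-course level by 3.77-fold with DMSO (−1.91 ± 0.45, adjusted p = 0.00071) and 2.96-fold in untreated cells (−1.57 ± 0.45, adjusted p = 0.005), against a difference of −0.08 ± 0.45 with prieurianin (adjusted p = 0.93). Without time as a block, the late call against untreated cells (adjusted p = 0.12) and the excess over the mid course against DMSO (adjusted p = 0.19) and against untreated cells (adjusted p = 0.34) were lost.

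The 2 Sgk1 probes disagreed. The dimmer one read 41 to 198 in deposited intensity, beside 484 to 52882 for the brighter, and showed no pulse, with log2 levels at 1 h of 6.71, 6.81 and 6.56 in the prieurianin, DMSO and untreated arms. Its late prieurianin minus DMSO difference was −0.13 ± 0.14 (adjusted p = 0.6). The mean of both probes gave 0.70 for that comparison, still called at an adjusted p of 0.043. The sources used here do not say which transcripts each probe detects.

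Zbtb16, a zinc finger repressor and steroid target, was near the bottom of the scale, at deposited intensities of 12 to 135. Its log2 levels ran from 4.91 to 6.33 over all arrays. In a fit without the filter, over 16637 genes, it was higher at 5 to 48 h than at 0 to 0.5 h with DMSO (0.63 ± 0.18, adjusted p = 0.022). The same change was 0.29 ± 0.18 with prieurianin (adjusted p = 0.35) and −0.03 ± 0.18 in untreated cells (adjusted p = 0.95), and none of its arm differences was called.

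Mt1 and Mt2, the metallothioneins that bind zinc and answer both metals and steroid, read 65459 to 65495 and 65460 to 65492 on the 54 arrays, at the top of the range of the deposited values. A saturated probe gives only a lower bound, so neither a fold nor an order of arms or times is given for them. Among 10 genes of metal response and zinc transport, 3 (30%) rose at 1 to 3 h over 0 to 0.5 h, where 13.5% of all genes were called, with a list median of 0.20 beside −0.02 for all genes. They were Mt4, another metallothionein gene (1.37 ± 0.25, adjusted p = 9.2e-05), the zinc exporter gene Slc30a1 (1.35 ± 0.16, adjusted p = 1.8e-08) and the copper transporter gene Atp7a (0.56 ± 0.15, adjusted p = 0.0053). Late, prieurianin had 2 higher and 1 lower than DMSO (30%, beside 16.7% of all genes). The zinc importer genes Slc39a14 (1.09 ± 0.26, adjusted p = 0.0036) and Slc39a10 (0.72 ± 0.16, adjusted p = 0.0018) were higher, and Slc30a1 (−0.54 ± 0.14, adjusted p = 0.0084) was lower. Against untreated cells late, only Slc39a10 was called of the 10, higher by 0.68 (10%, beside 22% of all genes). The differences of Slc39a14 and Slc30a1 were thus called against DMSO alone.

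**Figure D4:**
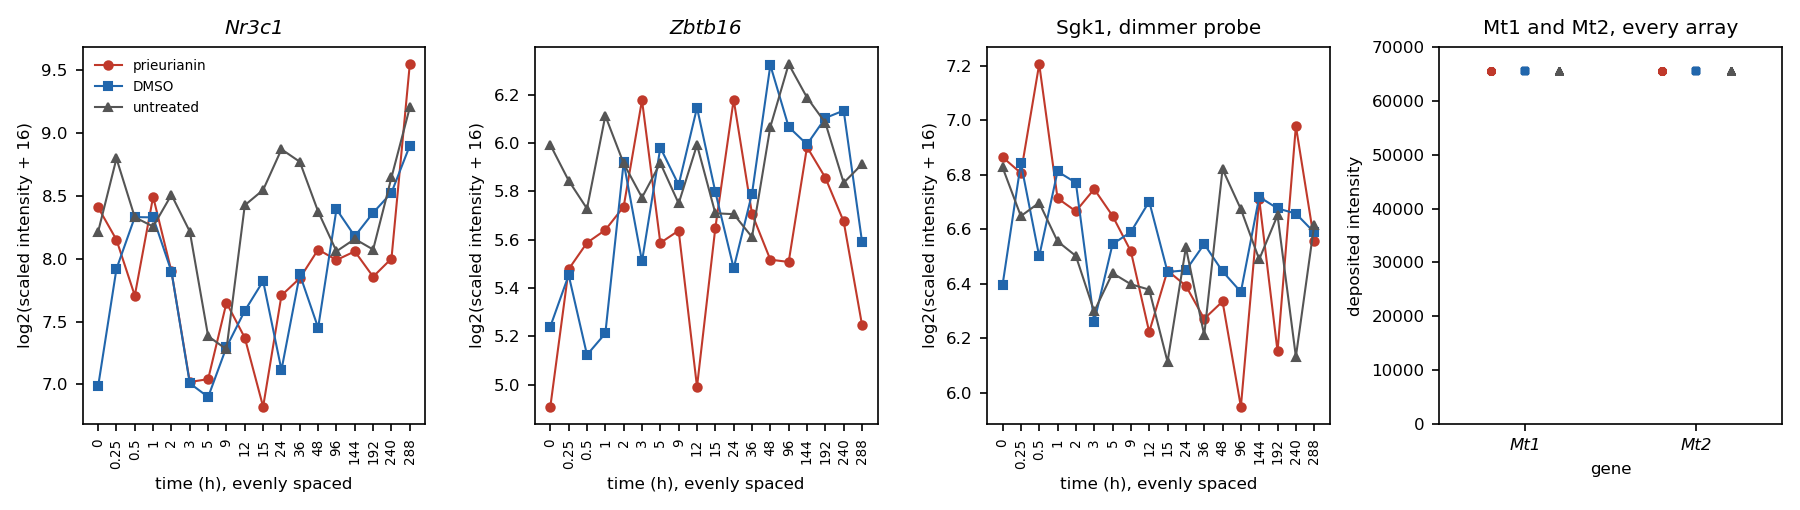
Log2 levels of Nr3c1, Zbtb16 and the dimmer Sgk1 probe against time (h, evenly spaced positions) in the 3 arms, and the deposited intensity of Mt1 and Mt2 on every array. Zbtb16 stays between 4.91 and 6.33 and the dimmer Sgk1 probe shows no peak at 1 h, while every Mt1 and Mt2 point sits at 65459 or more.

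Other induced targets were also tested at the times of the Sgk1 pulse, in the same fit without a time block. Of 20 such genes, 8 rose and 1 fell at 1 to 3 h over 0 to 0.5 h (45%, beside 13.5% of all genes called) and 11 were not called, and their median was 0.34 beside −0.02 for all genes. The largest rises were of Rgs2, a regulator of G protein signalling (3.06 ± 0.45, adjusted p = 2.1e-06), Errfi1, an inhibitor of the EGF receptor (2.24 ± 0.46, adjusted p = 0.00046) and Per1, a clock gene (2.19 ± 0.17, adjusted p = 3.4e-13). Bcl6, a transcriptional repressor, fell by 1.87 (−1.87 ± 0.28, adjusted p = 2.7e-06). Several of these genes also answer serum and cyclic AMP, and the labels do not separate those stimuli. Of 11 genes that glucocorticoids repress, 1 was called in the same contrast (9.09%), Ptgs2, which was higher by 1.75. At 5 to 48 h over 0 to 0.5 h, 6, 3 and 4 of the 20 induced targets rose in the prieurianin, DMSO and untreated arms. Angptl4 fell with prieurianin (−2.32). The shares called were 35%, 15% and 20%, beside 12.2%, 10.6% and 12.3% of all genes, with list medians of 0.21, −0.02 and 0.09.

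Between prieurianin and DMSO the induced targets split. At 5 to 48 h, 3 were higher and 1 lower (20%, beside 11.1% of all genes), with a median of 0.10 beside −0.01 for all genes. Tgm2, a transglutaminase, averaged 8.86 with prieurianin and 7.32 with DMSO (1.54 ± 0.22, adjusted p = 1.4e-05, higher at 7 of 7 times). Klf15, a transcription factor of fat and muscle, averaged 10.25 and 9.24 (1.02 ± 0.13, adjusted p = 2.7e-06, higher at 7 of 7 times). Dusp1, a phosphatase of MAP kinases, was higher (0.57 ± 0.18, adjusted p = 0.031), and Angptl4, a lipoprotein lipase inhibitor, was lower (−0.84 ± 0.23, adjusted p = 0.016). Late, 4 were higher and 3 lower (35%, beside 16.7%), with a median of 0.14. Rgs2 (−1.21 ± 0.33, adjusted p = 0.011) and Lpin1, a phosphatidate phosphatase (−1.12 ± 0.37, adjusted p = 0.035), were lower, while Dusp1 (1.00 ± 0.21, adjusted p = 0.0012) and Tgm2 (0.84 ± 0.27, adjusted p = 0.028) were higher. Without 192 h the Tgm2 difference was 0.68 (adjusted p = 0.094).

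The split at which Fkbp5 fell late was also read for the listed targets. It was chosen after the data were seen, so its calls are a description. At 240 to 288 h against 96 to 144 h, 0 induced targets rose in any arm, and 6, 2 and 3 of 20 fell in the prieurianin, DMSO and untreated arms. Those are 30%, 10% and 15% of the list, beside 6.02%, 7.11% and 6.99% of all genes called, so the DMSO share is near its background. Their medians were −0.35, −0.69 and −0.68, beside 0.0021, −0.01 and −0.03 for all genes. Rgs2 (−3.61 ± 0.73, adjusted p = 0.0018) fell with prieurianin, Errfi1 with prieurianin (−2.83 ± 0.75, adjusted p = 0.017) and in untreated cells (−2.56 ± 0.75, adjusted p = 0.029), and Ddit4, a stress-induced inhibitor of mTOR signalling, with DMSO (−1.80 ± 0.34, adjusted p = 0.0005) and in untreated cells (−1.74 ± 0.34, adjusted p = 0.00067). Of 11 genes that glucocorticoids repress, 5, 3 and 4 rose in the same 3 arms and none fell (45.5%, 27.3% and 36.4%, beside the same shares of all genes), with medians of 1.47, 1.52 and 1.34. The 3 macrophage markers tested had medians of 1.45, 0.91 and 0.95 over this split, 1 of them called higher with prieurianin, and the 6 adipocyte markers had medians of −1.86, 0.65 and 0.40, 1 of them called lower with prieurianin. Their part in these changes was not tested. The chemokine gene Ccl2 rose by 2.22 ± 0.40, 3.00 ± 0.40 and 3.11 ± 0.40 (adjusted p of 0.00048, 3.4e-06 and 1.9e-06), and Ccl7 and Cxcl1 rose in every arm too. Il6, a cytokine gene, rose with prieurianin (3.03 ± 0.86, adjusted p = 0.027). Whether the medium was changed between these times is not in the labels, and each arm's split rests on 2 arrays against 2. Over the main course windows 3, 2 and 2 of the 11 repressed genes fell in the 3 arms (27.3%, 18.2% and 18.2%) and 0 rose. For 5 to 48 h over 0 to 0.5 h their medians were −0.93, −0.95 and −1.40 (12.2%, 10.6% and 12.3% of all genes called). At 96 to 288 h over 5 to 48 h they were −0.81, −0.83 and −0.98 (23.7%, 36.9% and 33.6% called). Il6 was then lower in every arm, at −3.00, −3.34 and −3.12.

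**Figure D5:**
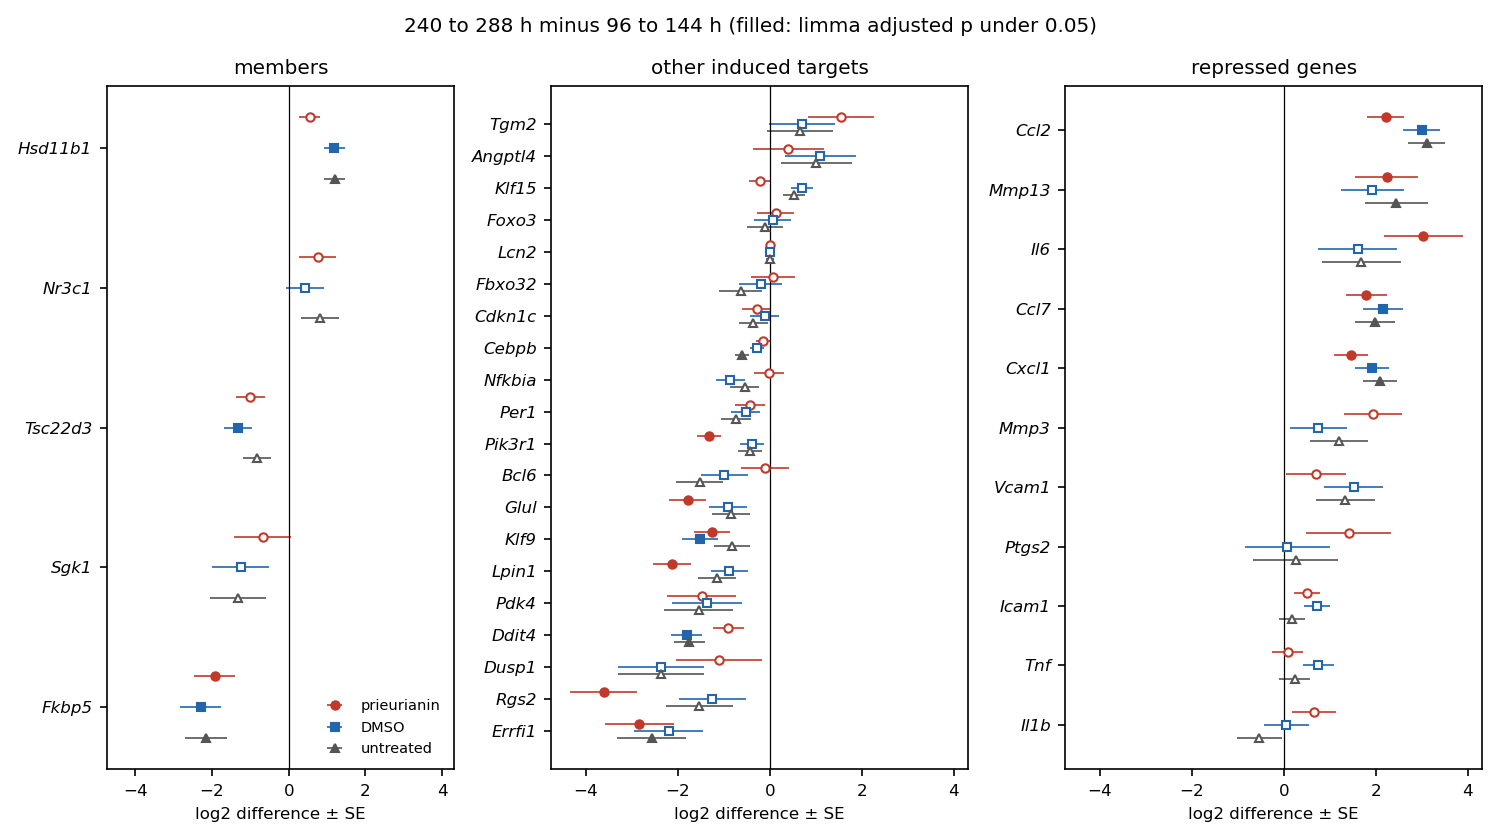
Log2 difference between 240 to 288 h and 96 to 144 h (x axis, ± SE) in the prieurianin, DMSO and untreated arms for the 5 measured members, 20 other induced targets and 11 repressed genes (y axis), filled where the adjusted p was under 0.05. Fkbp5 lies near −2 in all arms and Ccl2 between 2.22 and 3.11. The split was chosen after the data were seen.

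Of the 11 repressed genes, 2 (18.2%) were called between prieurianin and DMSO in each of the later windows, beside 11.1% of all genes at 5 to 48 h and 16.7% at 96 to 288 h. Ptgs2, which encodes the prostaglandin enzyme COX-2, was higher at 5 to 48 h (1.03 ± 0.32, adjusted p = 0.034) and late (1.41 ± 0.38, adjusted p = 0.01). Vcam1, an adhesion molecule gene, was lower in both windows (−0.90 ± 0.21, adjusted p = 0.004, and −0.76 ± 0.25, adjusted p = 0.032). Without 192 h the late Vcam1 difference was −0.65 (adjusted p = 0.08). The list medians were −0.17 and −0.35 in the 2 windows, on the other side of 0 from Ptgs2. Against untreated cells, 3 of 11 (27.3%, beside 28.5% of all genes) and 2 of 11 (18.2%, beside 22%) were called. Il6, an inflammatory cytokine gene, was higher with prieurianin than in untreated cells at 7 of 7 times in the mid course (1.198 ± 0.34, adjusted p = 0.0071) and at 4 of 5 late times (1.32 ± 0.40, adjusted p = 0.015). Ptgs2 was higher at 7 of 7 and 4 of 5 times (1.27 ± 0.32, adjusted p = 0.0033, and 1.62 ± 0.38, adjusted p = 0.0024), and Vcam1 was lower at 6 of 7 mid-course times (−0.92 ± 0.21, adjusted p = 0.0011). These 5 calls were lost with no time block (adjusted p of 0.089 to 0.26), the late one of Il6 also with a random block and without 144, 240 or 288 h (adjusted p of 0.066 to 0.12), and that of Vcam1 with the mean of its probes (adjusted p = 0.12).

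Across the 54 arrays, which share their times and arms, Fkbp5 and Tsc22d3 were alike (r = 0.838), while Hsd11b1 and Sgk1 ran opposite (r = −0.605). The tested genes most like each member were named by Pearson r of log2 levels over these arrays among 12785 genes. For Fkbp5 they were Glul (glutamine synthetase, r = 0.951), Socs2 (0.9005) and Slc25a29 (0.888). For Hsd11b1 they were Apoc1 (an apolipoprotein, r = 0.913), S100a1 (0.902) and Tst (0.899). For Sgk1 they were the immediate early genes Nr4a1 (r = 0.930, saturated on 2 arrays) and Fos (0.884), with Dusp1 (0.899) between them. For Tsc22d3 they were Kyat1 (0.9065), Megf9 (0.885) and Aldh4a1 (0.862), and for Nr3c1 they were Srpk2 (0.847), Arnt (0.785) and Stoml1 (0.779). Glul and Dusp1 are also on the list of induced targets.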

How the data were processed

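Expression was measured on 54 single-colour Cy5 Phalanx Mouse OneArrays, 1 per arm and time. The deposited values are probe intensities, whose upstream background correction and scaling are not stated in the labels. Their array medians differed, and they were quantile normalised here (limma 3.58.1, R 4.3.3), floored at 0 and taken as log2(value + 16).

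Of 29922 probes, 21020 carry 1 gene symbol and 8902 none. 3410 symbols were updated to current names. Each gene was represented by its brightest probe, and genes at or below a mean log2 of 6.07 (the 25th percentile) were dropped, leaving 12792 of 16637. All columns were used. A probe within 50 of an array's maximum was taken as saturated.

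Arm differences came from 1 limma fit of 51 arrays (28 residual degrees of freedom) with time as a block and arm by window as effects. Course changes came from a fit of all 54 arrays (42 residual degrees of freedom) without a time block. Its windows were 0 to 0.5, 1 to 3, 5 to 48 and 96 to 288 h per arm. P-values were adjusted by Benjamini-Hochberg over all tested genes. The time block follows the shared time label. All 8 members are named, with up to 4 called genes of largest difference per list and comparison and the 3 genes most like each tested member. The members and lists were chosen with earlier results of these data known. The steps were run on simulated data whose noise was independent between arrays, which cannot check whether times can stand in for replicates. Promoters are RefSeq's, build GRCm38.p6. Alternatives covered scaling, pseudocount, filter, probe choice, block, arms fitted, baseline and leaving out each time.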

Additional observations from a re-analysis of the deposited data

Results flagged for a closer look

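Within a window, 5 of 54 groups of arm differences held a time far from the others, and chance gives about 1 in 20 such groups. Fkbp5 stood apart at 192 h in 2 of them. Its prieurianin minus DMSO difference there was 2.4589, where the other late times ran from −0.9823 to −0.0743, and its DMSO minus untreated difference was −1.9406, where the others ran from −0.0768 to 0.1812. The DMSO array at 192 h is in both. Hsd11b1 at 36 h had a prieurianin minus untreated difference of −1.8894 beside −0.9801 to −0.3097 at the other mid-course times. Nr3c1 at 0.5 h had a prieurianin minus DMSO difference of −0.6257 beside 0.001 to 0.2319. Zbtb16 at 24 h, near background, had a DMSO minus untreated difference of −0.2238 beside 0.064 to 0.2553.

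The effect of prieurianin differed between 96 to 288 h and 5 to 48 h for 2 members, by a test of the difference itself. For Hsd11b1 the late difference minus the mid-course one was −1.3292 against DMSO and −1.0161 against untreated cells. For Sgk1 it was 1.8311 against DMSO and 1.4841 against untreated cells. These comparisons share the prieurianin arrays, and the part of the adipocyte markers that moved with them was not tested.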

How the results depend on the processing

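Over 95 results for the 5 measured members and 2725 alternatives, 2611 kept direction and side of the threshold, 80 lost the call, 33 gained it and 1 reversed. The reversal was Fkbp5, prieurianin minus DMSO at 96 to 288 h, at −0.5305 without 192 h (−0.5305 to 0.3298 leaving out 1 time in turn). Over 161 results for listed genes, 4193 of 4653 alternatives kept the call and 460 lost it. The late Hsd11b1 difference between prieurianin and DMSO ran from −1.84 to −1.49 and that of Sgk1 from 0.70 (mean of its probes) to 1.66, both called in all 28 alternatives. Each time is 1 array per arm, and the dim Nr3c1, Tsc22d3 and Zbtb16 signals limit precision; the causes of the changes below were not tested.

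Counts of genes called moved with scaling and with the block. Prieurianin minus DMSO called 1424 at 5 to 48 h, against 581 with median centring, 647 on values as deposited and 411 with no replicate block (no pairing by time). At 96 to 288 h it called 2133, against 810, 1379 and 657 in the same 3 settings. Prieurianin minus untreated called 3642 and 2811 in those windows, against 2297 and 1327 with median centring and 1962 and 1227 with no replicate block. DMSO minus untreated called 2596 at 5 to 48 h, against 4224 with every probe tested by itself and 1366 with no replicate block. At 96 to 288 h it called 467, against 32 with median centring, 17 as deposited, 125 with no replicate block and 787 with only the arms compared. The late against mid contrast called 862 for prieurianin minus DMSO, against 233, 183, 561 with time as a random replicate block, 9 with no replicate block and 213 with only the arms compared. For prieurianin minus untreated it called 740, against 64, 218, 399, 6 and 79.

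The change at 1 to 3 h over 0 to 0.5 h called 1729, against 995 with the random block. With both windows moved, to 0.5 to 3 h over 0 to 0.25 h, it called 615. At 5 to 48 h over 0 to 0.5 h, prieurianin called 1559, against 988 (median centring), 1001 (as deposited), 993 (only its arm) and 514 (baseline 0 to 0.25 h). DMSO called 1351, against 813, 491, 2119 (baseline 0 to 1 h) and 487 (0 to 0.25 h). Untreated cells called 1572, against 868 with median centring and 526 with the short baseline. Prieurianin at 96 to 288 h over 5 to 48 h called 3037, against 1920 with median centring. At 240 to 288 h over 96 to 144 h, prieurianin called 770, against 266, 227 and 461 (median centring, as deposited, only its arm). DMSO called 910, against 366 and 511, and untreated cells 894, against 406, 341 and 486. The baseline of 0 to 0.25 h and this late split were added after seeing the data.

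Leaving out 1 time in turn gave 655 to 1870 and 811 to 3302 calls for prieurianin minus DMSO at 5 to 48 h and 96 to 288 h. It gave 2604 to 4110 and 1750 to 3647 for prieurianin minus untreated, 1774 to 3009 and 108 to 648 for DMSO minus untreated, and 163 to 2019 and 292 to 1751 for the late against mid contrasts. For the course it gave 719 to 2534 at 1 to 3 h. For 5 to 48 h it gave 514 to 1794, 482 to 1560 and 552 to 1884 in the prieurianin, DMSO and untreated arms, and for the late split 124 to 1039, 279 to 1080 and 233 to 1081.

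The share of calls that were higher depended on scaling, and the setting that moved it most stands in brackets. For prieurianin minus DMSO it was 59.5% at 5 to 48 h (95.5% with median centring) and 43.9% at 96 to 288 h (31.1% as deposited). For prieurianin minus untreated it was 45.7% (29.3% as deposited) and 52% (21.2%), and for DMSO minus untreated 46.7% (19.5% with median centring) and 86.1% (100%). For the late against mid contrasts it was 42.5% (9%) and 56.8% (29.4% as deposited). For 1 to 3 h it was 37.7% (17.7% as deposited). For 5 to 48 h over baseline it was 48% (19.1%), 38% (18.7% with median centring) and 41% (10.5% as deposited) in the prieurianin, DMSO and untreated arms. At 96 to 288 h over 5 to 48 h it was 50.8% (30.9%) with prieurianin and 49.4% (68.3% with median centring, 34.4% as deposited) with DMSO. For the late split it was 59.2% (89% as deposited) with DMSO and 61.4% (79.6% with median centring) in untreated cells. Relative to quantile normalisation, values as deposited shifted the median of all genes by −0.186 (untreated, 5 to 48 h over baseline) to 0.2177 (DMSO, late split), and median centring shifted it by −0.1501 for DMSO minus untreated at 5 to 48 h.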
